A study of Rattus norvegicus with 6 samples.

Results

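Microglia of the rat nucleus accumbens, in the ventral striatum, were nuclei chosen by raw counts of unique molecular identifiers (UMIs, which tag each captured RNA molecule once) of marker genes. A nucleus was taken when it had at least 500 detected genes, at most 5% of its UMIs in mitochondrial genes, and at least 2 UMIs in the sum of Csf1r, Cx3cr1, P2ry12, C1qa, C1qb and Inpp5d. It could hold at most 1 UMI of Gad1 and Gad2 together, at most 1 of Flt1, and none of Mog, Opalin, Aqp4 or Pdgfra. The rule found 1644 nuclei, 2.67% of the 61609 that passed the limits on genes and mitochondrial UMIs, out of 64260 barcodes in the files. Saline replicates 1, 2 and 3 gave 165, 313 and 286 of them, and naloxone replicates 4, 5 and 6 gave 261, 318 and 301.

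All rats were Sprague-Dawley, male or female, 90 to 120 days old, and all had self-administered heroin: 7 days on a fixed ratio of 1 response, 4 days on a fixed ratio of 3, a progressive ratio test on day 12, then the ratio of 3 on days 13 and 14. Saline, or naloxone, an antagonist of opioid receptors, was injected when the final session was over, and the rats were killed 1 h later. Tissue punches of 6 male and 6 female rats were pooled into 6 droplet single-nucleus libraries, 3 of each group, and each library held nuclei of both sexes. The comparison of the groups asks how naloxone after heroin taking differs from saline in the same cells. Every group carried the heroin history, and rats without heroin were not analysed here. The labels do not tie single rats to libraries, so the p-values measure the spread between pooled libraries.

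Microglia are the resident macrophages of the brain. They depend on signals through the receptor Csf1r, sense fractalkine through Cx3cr1 and released nucleotides through P2ry12, and supply C1q, the recognition complex that starts the classical complement cascade. Inpp5d is a lipid phosphatase that limits signalling from immune receptors. In the striatum they survey synapses and clear debris, and they carry receptors for corticosteroids, the adrenal hormones that act through Nr3c1 and Nr3c2.

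For the 2 genes that passed the test between the groups, and for the heat shock gene with the smallest p, the 250 bases before the RefSeq start site are shown, so that motif letters can be read beside the changes. They are written 5′ to 3′ in the direction of the gene, from the GRCr8 build, while the counts were made on another build. Eef2k and Hsph1 were chosen for printing after their values were seen. Capitals mark matches to the core of the heat shock element, GAANNTTC or TTCNNGAA, which together cover both strands.
Fkbp5 (chr20:6543556-6543805, minus strand): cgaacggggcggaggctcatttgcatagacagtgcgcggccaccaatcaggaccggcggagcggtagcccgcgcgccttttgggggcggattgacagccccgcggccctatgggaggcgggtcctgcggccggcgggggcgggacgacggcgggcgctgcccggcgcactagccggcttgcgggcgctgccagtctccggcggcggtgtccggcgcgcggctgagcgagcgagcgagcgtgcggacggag
Eef2k (chr1:184824170-184824419, plus strand): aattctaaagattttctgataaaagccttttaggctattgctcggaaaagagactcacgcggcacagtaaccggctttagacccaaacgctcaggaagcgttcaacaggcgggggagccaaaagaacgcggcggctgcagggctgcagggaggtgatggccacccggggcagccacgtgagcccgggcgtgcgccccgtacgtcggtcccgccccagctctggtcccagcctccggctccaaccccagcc
Hsph1 (chr12:10427118-10427367, plus strand): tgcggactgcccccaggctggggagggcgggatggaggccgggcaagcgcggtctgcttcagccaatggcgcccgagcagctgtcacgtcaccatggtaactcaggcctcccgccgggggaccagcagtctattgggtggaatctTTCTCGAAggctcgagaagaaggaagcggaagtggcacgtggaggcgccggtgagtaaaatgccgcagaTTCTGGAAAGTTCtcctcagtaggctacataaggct
The Hsph1 window held 3 matches, which begin 105, 36 and 31 bases before the start site, and the last 2 overlap. Such a match was found in 13.5% of the 33469 windows of this length in the table. The windows of the other chaperones named below were searched too: that of Dnaja1 held 1 match, 181 bases before its start site, and that of Chordc1 none. The Fkbp5 and Eef2k windows were searched for the short glucocorticoid receptor site AGAACA and its reverse complement TGTTCT and held none, while 17.5% of windows hold at least 1. These letters describe the windows alone.

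The label was checked against the markers, with no test, since the rule used them. Levels are given as CPM, counts per 1e6 UMIs of the summed microglia nuclei of a library, and ± is the SD over n = 6 libraries. Inpp5d stood at 1420 ± 427 CPM (15.7 in all other kept nuclei), Csf1r at 702 ± 119 (9.51), Cx3cr1 at 647 ± 105 (9.22), P2ry12 at 311 ± 30.3 (15.9), C1qa at 179 ± 61.5 (4.96) and C1qb at 128 ± 46.2 (3.45). An Inpp5d UMI was found in 84.4% of the microglia nuclei, a Csf1r UMI in 70.5% and a C1qb UMI in 22.5%. Of the 1644 nuclei, 226 sat at the threshold of 2 marker UMIs, with a median of 1619 UMIs, and 1045 nuclei just outside it had 1 marker UMI and met every other limit.

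The nuclei were not of 1 kind. In 311 of them the markers made up under 2 of every 1000 UMIs, and the neuron markers go against the label there. These marker-poor nuclei held 26.9% to 54.5% of the UMIs of each library's microglia sum. Their summed level of 13 neuron markers was 15509 to 21755 CPM, against 22125 to 24513 CPM in all other kept nuclei. In the other 1333 microglia nuclei, called marker-rich below, it was 961 to 1852 CPM. Homeostatic microglia genes outside the rule summed to 1009 to 1746 CPM in the marker-poor nuclei. They came to 165 to 197 CPM in all other kept nuclei and 7725 to 9332 CPM in the marker-rich nuclei. Over all members the neuron markers came to 6994 to 12551 CPM in saline and 5669 to 11803 CPM in naloxone libraries, so the groups overlapped. Astrocyte markers over all members summed to 2622 to 2899 CPM in saline and 2068 to 2633 CPM in naloxone libraries. Oligodendrocyte markers summed to 556 to 841 and 792 to 1125 CPM. In the marker-rich nuclei oligodendrocyte markers summed to 905 to 1487 CPM, against 926 to 1545 CPM in all other kept nuclei. In the marker-poor nuclei they came to 181 to 763 CPM. Astrocyte markers in the marker-rich nuclei summed to 1615 to 3063 CPM, against 2196 to 2529 CPM in all other kept nuclei. The part of these other RNAs in the results on all members or on the marker-rich nuclei was not tested. The rule also lost cells: of 780 kept nuclei with 10 or more marker UMIs, 395 were members, and the others failed a limit on a gene of another cell type, at a median depth of 4888 to 19080 UMIs by library. Because of this mixture, the results that passed a test are also given for the marker-rich nuclei where they were tested there. That subset was chosen after the data were seen. The rule asks for 2 marker UMIs, so every member of at most 1000 UMIs is marker-rich. Of the 1333, 407 had fewer than 1000 UMIs, and the cut could not sort these.

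**Figure D1:**
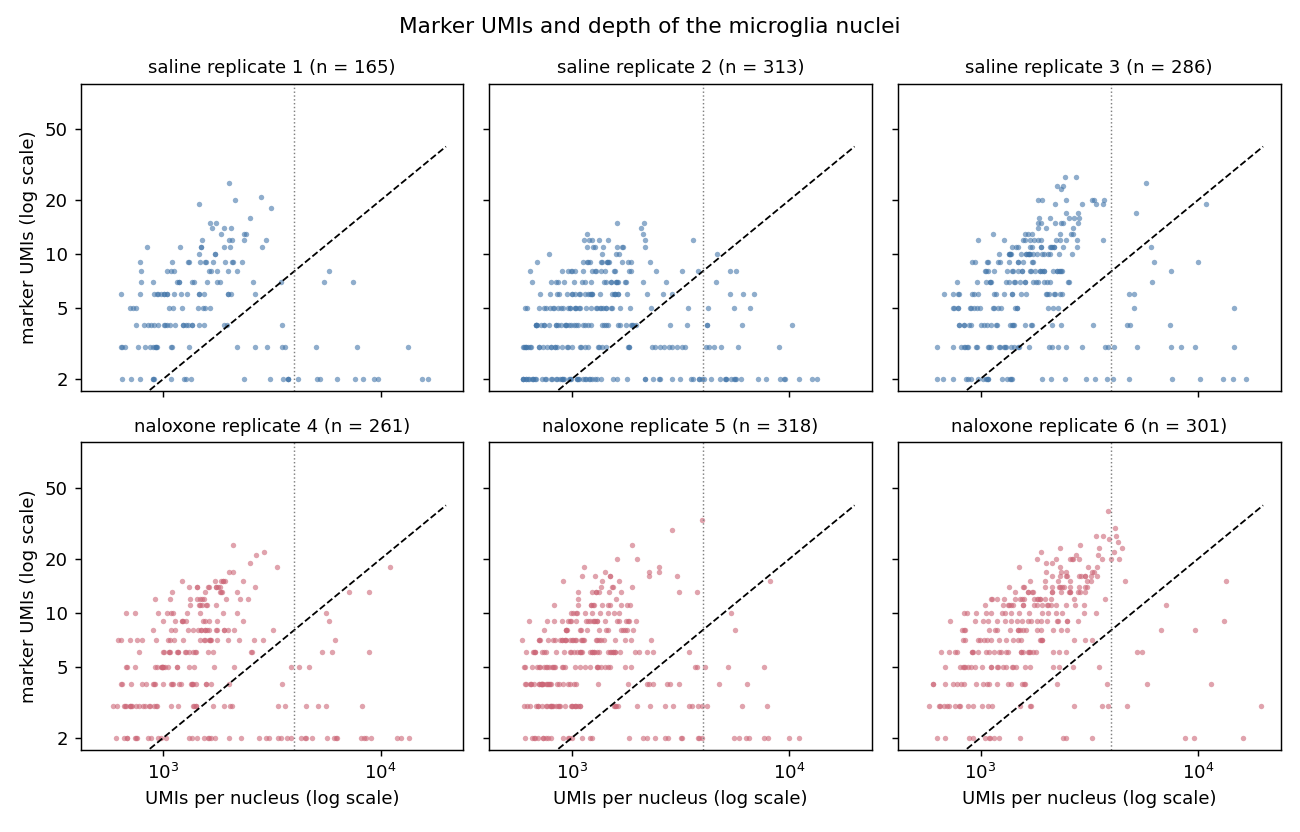
UMIs of the 6 marker genes (vertical, log scale) against all UMIs (horizontal, log scale) of each microglia nucleus, 1 panel per library. Nuclei below the dashed line have under 2 marker UMIs per 1000 (311 of 1644), the dotted line is at 4000 UMIs, and 153 nuclei lie to its right.

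The library medians of depth ran from 1176.5 to 1689 UMIs per microglia nucleus, against 4616 to 6953.5 in the other nuclei. Markers of macrophages at the brain borders (11 of 12 listed genes in the files) summed to 150.5 to 347 CPM in saline and 116 to 390 CPM in naloxone libraries, with Cp, a copper-carrying oxidase, at 101 to 179 CPM in every library. The defining genes came from few nuclei: Mrc1, the mannose receptor, was at 0 in saline replicates 1 and 3, at 1.81 CPM in naloxone replicate 4, and at 74.9, 75.4 and 40.4 CPM in saline replicate 2, naloxone replicate 5 and naloxone replicate 6. The 12 T and NK cell markers summed to 195 to 205 CPM in saline and 103 to 234 CPM in naloxone libraries. Most of that was Skap1 (91.4 CPM on average) and Bcl11b (85.1 CPM, against 213 in the other nuclei), while the T cell receptor genes Cd3e, Cd3d and Cd3g were at 0.755, 1.62 and 1.82 CPM and 3 of the 12 were at 0. The 10 neutrophil and monocyte markers summed to 64.1 to 113 CPM, with 43.2 CPM of Csf3r, and 4 of them, among them Ccr2 and Mpo, were at 0. Of the nuclei marked by simulated doublets, whose number per library was set beforehand, 24 were among the 1644. UMIs of both Xist and a Y-linked gene were found in 68 of the 1644. Such nuclei made up 1.82% to 7.03% of microglia by library, against 6.92% to 10.4% of all kept nuclei. These shares were not thinned to a common depth, and the part of the lower depth of microglia nuclei was not tested. Whether they were doublets was not tested.

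Genes that the rule did not use were far above the other nuclei, as a description of the cells chosen. Of 19 homeostatic microglia genes in the files, 16 were above the other nuclei in every library, with a median ratio of 28.5. Tgfbr1, a receptor for the cytokine that maintains microglial identity, was at 1222 ± 313 CPM, the organic anion transporter Slco2b1 at 1004 ± 176, Golm1 at 739 ± 120 and the transcription factor Sall1 at 278 ± 65.3 CPM. Siglech was at 0 in all 6 libraries and Olfml3 in 5 of 6. Among genes of at least 100 CPM, the largest ratios to the other nuclei belonged to Cd300a (95.5), an unnamed gene ENSRNOG00000069031 (91.4), Plek (89.9), Rubcnl (88.7), Slc10a6 (88.5), P2ry6 (84.7), Arhgap45 (83.9), Havcr2 (83.5), Pilrb2l2 (83.0), Nlrp3 (82.95), Susd3 (82.9), Lcp2 (82.6), Blnk (82.1), Arhgap15 (81.8) and Ikzf1 (81.7). P2ry6 is a receptor for extracellular nucleotides tied to phagocytosis, Nlrp3 the sensor of an inflammasome, Havcr2 an immune checkpoint receptor and Ikzf1 a transcription factor of blood lineages. Arhgap15, a GTPase-activating protein, had the highest level of these, 2475 ± 512 CPM.

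After naloxone, 2 of 8381 genes tested in microglia passed an adjusted p under 0.05 (0.0239%), and both rose. Fkbp5 (ENSRNOG00000022523) encodes a co-chaperone of the glucocorticoid receptor that is itself induced by glucocorticoids. Eef2k (ENSRNOG00000016448) encodes the kinase that phosphorylates elongation factor 2 and so slows translation. The test was edgeR's quasi-likelihood test on the summed UMIs, with Benjamini-Hochberg adjustment over all genes tested. At an unadjusted p under 0.05 there were 440 genes (5.25%), 256 higher and 184 lower.

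Fkbp5 stood at 90.3, 86.0 and 99.7 CPM in saline replicates 1, 2 and 3, and at 349, 605 and 426 CPM in naloxone replicates 4, 5 and 6. The lowest naloxone library was far above the highest saline library. The log2 change was 2.31 (SE 0.23, edgeR adjusted p = 0.0022), from 92.0 ± 7.00 to 460 ± 132 CPM (SD, n = 3). An Fkbp5 UMI was found in 17.2 ± 3.0% of saline and 48.4 ± 9.6% of naloxone microglia nuclei. After each nucleus was thinned to 1000 UMIs the shares were 10.5 ± 0.30% and 35.5 ± 7.8%, with 407 of the 1644 nuclei too shallow to enter. Nuclei with 2 or more UMIs of Mog and Opalin, the oligodendrocyte gate, had 3.88 ± 0.37% and 15.1 ± 7.1% after the same thinning, at medians of 1463.5 to 2324.5 UMIs per nucleus before it. In the marker-rich nuclei the log2 change of Fkbp5 was 2.30 (edgeR adjusted p = 0.00060), with 133 to 143 CPM in saline and 524 to 904 CPM in naloxone libraries. The call was lost without saline replicate 1 (log2 change 2.31, edgeR adjusted p = 0.0565).

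Eef2k stood at 131, 66.9 and 128 CPM in saline replicates 1, 2 and 3, and at 307, 404 and 423 CPM in naloxone replicates 4, 5 and 6. The groups did not overlap, and saline replicate 2 was the lowest library. The log2 change was 1.81 (SE 0.24, edgeR adjusted p = 0.0275), from 109 ± 36.4 to 378 ± 61.9 CPM (SD, n = 3). The thinned share of nuclei with an Eef2k UMI was 13.0 ± 5.9% in saline and 32.9 ± 2.5% in naloxone libraries, and 4.46 ± 0.37% and 2.89 ± 0.69% in the oligodendrocyte gate. In the marker-rich nuclei the log2 change was 1.85 (edgeR adjusted p = 0.0065), with 91.0 to 217 CPM in saline and 542 to 620 CPM in naloxone libraries. The call was lost without saline replicate 1, 2 or 3 or naloxone replicate 5 (edgeR adjusted p = 0.156, 0.0758, 0.0962 and 0.119), where the log2 change ran from 1.54 to 1.96.

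The change of both genes differed between microglia and all other kept nuclei. An edgeR fit over both sets of nuclei with library as a block gave the difference as the interaction of cell set and treatment, for which 2 of 8381 genes (0.0239%) passed. For Fkbp5 the term was 1.51 (edgeR adjusted p = 0.0060). The other nuclei had 38.4, 38.1 and 37.6 CPM of Fkbp5 in saline and 54.5, 87.0 and 56.1 CPM in naloxone libraries, a log2 change of 0.78 that did not pass the test there (edgeR adjusted p = 0.126), where 14 of 17379 genes passed (0.0806%). For Eef2k the term was 1.79 (edgeR adjusted p = 0.037), and the other nuclei stayed between 22.1 and 24.6 CPM in all 6 libraries (log2 change 0.02). Both terms lost the call without saline replicate 1, 2 or 3 or naloxone replicate 5, with adjusted p of up to 0.166 for Fkbp5 and 0.198 for Eef2k, and both kept it in the marker-rich nuclei (edgeR adjusted p = 0.0020 and 0.0056). Other glia had larger Fkbp5 values in naloxone libraries than all other nuclei. The oligodendrocyte gate went from 42.1 ± 1.29 CPM in saline to 170 ± 87.8 in naloxone libraries, and nuclei with 2 or more Aqp4 UMIs, the astrocyte gate, from 22.9 ± 9.52 to 155 ± 123 CPM (SD, n = 3). The difference between microglia and these gates was not tested. For Eef2k the oligodendrocyte gate had 44.6 ± 4.38 and 30.8 ± 5.77 CPM, and the astrocyte gate 59.9 ± 11.4 and 72.8 ± 23.4 CPM.

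**Figure D2:**
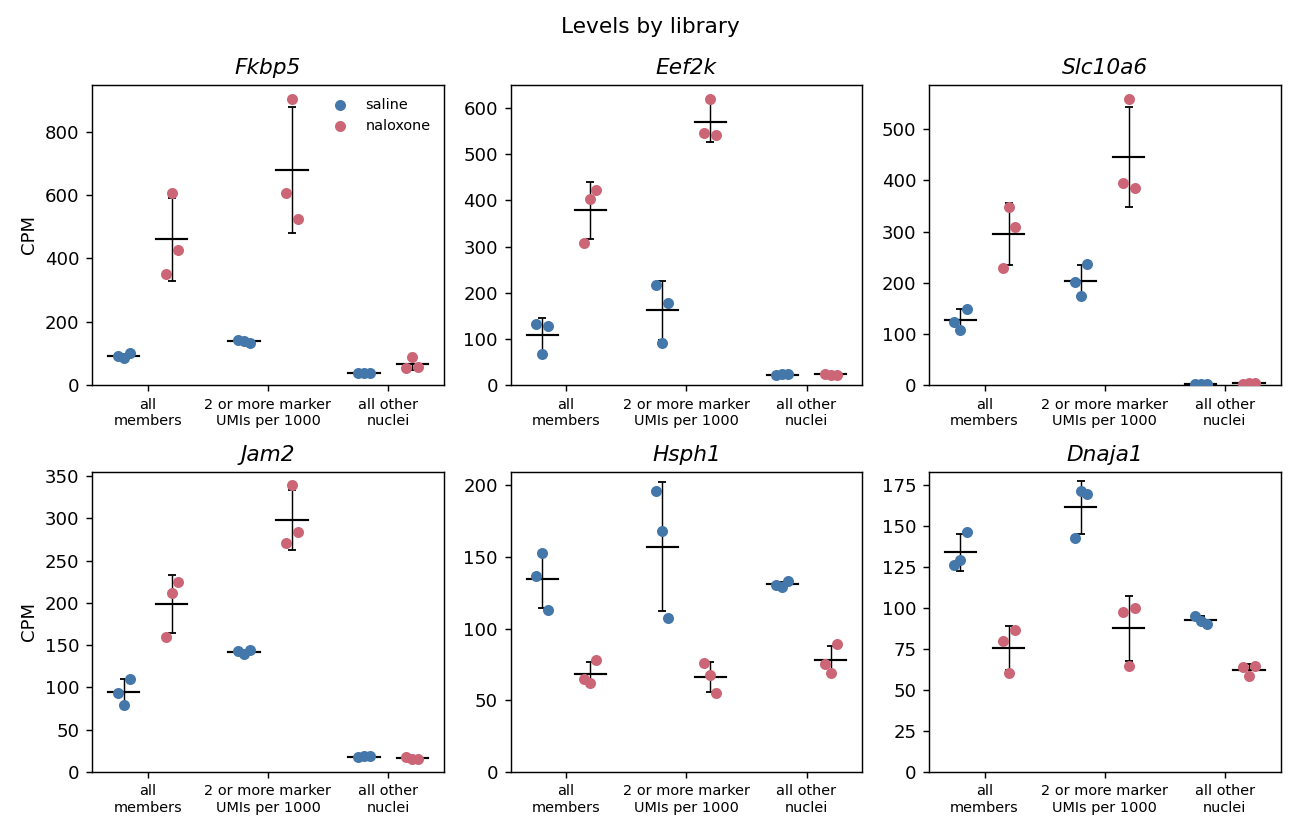
CPM of 6 genes (vertical, linear from 0) in each library, for all 1644 microglia nuclei, the 1333 marker-rich ones and all other kept nuclei. Points are libraries, the horizontal line is the mean of 3 and the bar the SD. Fkbp5 and Eef2k passed edgeR's test in all microglia nuclei, and Slc10a6 (which DESeq2 called), Jam2, Hsph1 and Dnaja1 did not.

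The next genes by unadjusted p did not pass the adjusted test (edgeR adjusted p = 0.152 for the first 7 of them). DESeq2 called 4 of them: Ndst4 (adjusted p = 0.0267), Slc10a6 (0.0279), Pstpip1 (0.0492) and Ccnd3 (0.0492). Slc10a6, a transporter of sulfated steroids and one of the 15 genes with the largest ratios above, was at 123, 107 and 149.5 CPM in saline and 228, 347 and 310 CPM in naloxone libraries (log2 change 1.21, SE 0.20). RT1-DMb, a chaperone of peptide loading on class II molecules, had a log2 change of 1.05, with 57.5, 63.7 and 72.5 CPM in saline and 121, 128 and 157 CPM in naloxone libraries. Pstpip1, an adaptor of the immune cell cytoskeleton, had 1.80, the junction protein Jam2 1.06, the cyclin Ccnd3 1.22, and the receptor Notch4 1.35 (edgeR adjusted p = 0.292). Every naloxone library was above every saline library for each of these 6 genes, as for 466 of the 8381 genes tested (5.56%). The 6 genes were picked by their p in this same comparison, so the separation adds no support for them. Their log2 changes in the marker-rich nuclei were between 0.94 and 1.82. Of the other genes among the 10 with the smallest p, Ndst4 (2.07) and ENSRNOG00000065037 (-3.45) had their higher level in the marker-poor nuclei. Ndst4, a heparan sulfate enzyme, was at 159 CPM there on average and at 6.52 CPM in the marker-rich nuclei.

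Of 28 listed glucocorticoid targets and receptors, 26 were in the files and 14 passed the filter on low counts. Fkbp5 was the 1 member called (0.0239% of all genes tested were), and no member was called lower. The change was positive for 11 members and negative for 3, and it was positive for 4208 of all 8381 genes tested. The median log2 change was 0.40, against 0.00 over all genes tested. Above every saline library in all 3 naloxone libraries were 5 members (5.56% of all genes tested). Fkbp5 is among those 5, and the list was drawn up with results of these data known. Tsc22d3, which encodes the leucine zipper protein GILZ that mediates anti-inflammatory glucocorticoid effects, was at 27.4, 33.5 and 45.3 CPM in saline and 47.0, 79.2 and 98.7 CPM in naloxone libraries (log2 change 1.04, edgeR adjusted p = 0.883). Ddit4, an inhibitor of the growth kinase mTORC1, had 13.7, 15.9 and 10.6 CPM against 25.3, 39.6 and 25.4 CPM (1.15, adjusted p = 0.883). The clock gene Per2 had a log2 change of 0.95 and Errfi1, an inhibitor of EGF receptor signalling, one of 0.62. Nr3c1, the glucocorticoid receptor itself, was lower in each naloxone library, at 413, 428 and 397 CPM against 320, 279 and 357 CPM (log2 change -0.38, edgeR adjusted p = 0.945). In the other nuclei the median change of the same members was 0.38. In microglia it was 0.18 without naloxone replicate 5 and 0.08 in sums by sex.

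Most heat shock chaperones had negative changes, and none was called. Of 29 listed members 21 were tested, and 0 passed edgeR's adjusted test (DESeq2 called 6 genes in all, none of them a chaperone, and edgeR with no filter on low counts called Hsph1, with an adjusted p of 0.0415). The change was negative for 16 and positive for 5, with a median of -0.27. Over all 8381 genes tested, 4208 changes were positive and the median was 0.00. At an unadjusted p under 0.05 there were 6 members lower and 0 higher (2.2% of all genes tested were lower). Hsph1, which recharges the chaperone Hsp70 as a nucleotide exchange factor, was at 137, 153 and 113 CPM in saline and 65.1, 62.2 and 77.8 CPM in naloxone libraries (log2 change -0.97, SE 0.20, edgeR adjusted p = 0.324). Dnaja1, a partner protein of Hsp70, was at 126, 129 and 147 CPM against 79.6, 60.4 and 86.7 CPM (-0.83), and Chordc1, a partner of Hsp90, at 112, 104 and 145 CPM against 72.4, 52.8 and 73.3 CPM (-0.87). For these 3 genes each naloxone library was below each saline library, as for 7 members of the list and 397 of all genes tested (4.74%). Ahsa2 had a log2 change of -0.81. The Hsp90 genes Hsp90aa1 (-0.14) and Hsp90ab1 (-0.11) and the constitutive Hsp70 gene Hspa8 (-0.17) had overlapping groups. The difference of Hsph1 to the other nuclei was -0.24 (edgeR adjusted p = 0.99). In those nuclei Hsph1 had a log2 change of -0.75 (edgeR adjusted p = 0.0504), and Dnaja1 (-0.58) and Chordc1 (-0.85) fell (edgeR adjusted p = 0.0433 for each). The median of the list was -0.51 in the marker-rich nuclei, where 17 members were tested. In the other nuclei the median of the same 21 members was -0.36.

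**Figure D3:**
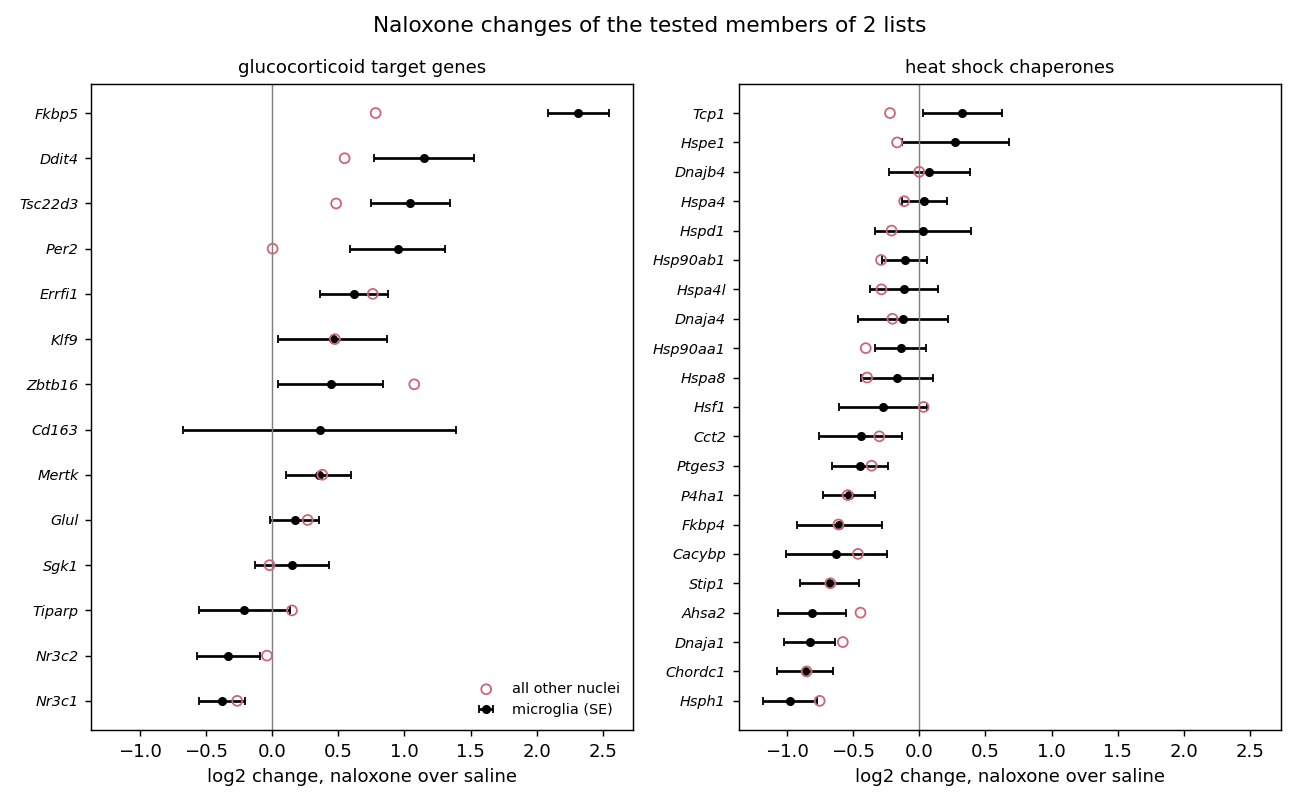
Log2 change, naloxone over saline (horizontal), of the tested members of the glucocorticoid list (14) and the heat shock list (21). Filled points are microglia with the SE of the edgeR fit, and open points all other kept nuclei. Fkbp5 lies at 2.31 in microglia and 0.78 in the other nuclei, and 16 of the 21 heat shock members lie left of 0 in microglia.

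Genes of microglial identity and immune function had 0 calls in edgeR's test among 15 homeostatic genes, 15 myeloid transcription factors, 20 complement and phagocytosis genes, 19 lysosome and lipid genes, 11 disease-associated genes, 14 inflammatory genes, 10 genes of the Toll-like receptor 4 pathway, 9 interferon genes and 17 genes of the purine and chemokine receptor list that were tested. Their median log2 changes were 0.14, 0.17, 0.12, 0.14, 0.01, 0.03, -0.03, -0.01 and 0.15. At an unadjusted p under 0.05 the counts were, in this order, 2, 1, 2, 1, 2, 1, 1, 0 and 4 higher (3.05% of all genes tested) and 0, 0, 1, 0, 0, 1, 0, 0 and 0 lower. DESeq2 called none of these genes. The median over all genes tested was 0.00, and in the marker-rich nuclei all 9 were between -0.16 and 0.03.

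Single members are given as values. In the homeostatic list the fructose transporter Slc2a5 had a log2 change of 0.56 (212 ± 41.8 to 312 ± 83.0 CPM) and the leukotriene synthase Ltc4s 0.58 (48.3 ± 3.19 to 72.4 ± 19.0 CPM). Among transcription factors Mef2a, which takes part in microglial enhancers, had 0.59 and the interferon regulatory factor Irf8 -0.49. In the complement and phagocytosis list the smallest p belonged to Megf10, an engulfment receptor, at 43.8, 39.8 and 28.7 CPM in saline and 3.62, 18.9 and 1.495 CPM in naloxone libraries (log2 change -2.26, edgeR adjusted p = 0.709). Its level came mainly from the marker-poor nuclei, with means of 67.4 and 15.1 CPM there against 10.2 and 3.09 CPM in the marker-rich nuclei. C1qc, the remaining chain of C1q, was at 16.4, 28.7 and 58.9 CPM in saline and 54.3, 83.0 and 73.3 CPM in naloxone libraries (0.92), so the groups overlapped. Ctss, a lysosomal protease that was at 1595 ± 469 CPM over all libraries, had 0.56. P2ry14, a receptor for nucleotide sugars, had 0.96.

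Of the inflammatory genes, Il1a, a cytokine of the interleukin 1 family, was at 16.4, 23.9 and 52.9 CPM in saline and 3.62, 9.43 and 22.4 CPM in naloxone libraries (log2 change -1.39, edgeR adjusted p = 0.883), and Il18, another, had 0.47. Irak2, a kinase of Toll-like and interleukin 1 receptor signalling, had 1.02. The inflammasome sensor Nlrp3 had 0.17, with 124 to 160 CPM in saline and 125 to 206 CPM in naloxone libraries. Of 22 immediate early genes in the files, Klf6 (-1.20) and Jun (-0.53) passed the filter on low counts. Genes of cyclic AMP signalling, the pathway that opioid receptors inhibit, had a median of -0.07 with 24 tested and 0 called by edgeR.

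Oprm1 (ENSRNOG00000018191), which encodes the mu opioid receptor at which naloxone acts, was present in the microglia sums at 68.4, 84.4 and 99.7 CPM in saline and 99.5, 126 and 114 CPM in naloxone libraries. The groups touched, with naloxone replicate 4 just below saline replicate 3, and the change did not pass the test (log2 change 0.40, SE 0.20, edgeR adjusted p = 0.953). In all 6 libraries the level was above that of the other nuclei, which ran from 55.2 to 69.3 CPM, and the values were closest in saline replicate 1, at 68.4 and 59.95 CPM. In the marker-rich nuclei, where neuron markers were at 961 to 1852 CPM, Oprm1 was at 114 ± 19.0 CPM, and in the marker-poor nuclei at 80.9 CPM on average. An Oprm1 UMI was found in 16.4 ± 2.6% of microglia nuclei, and in 9.44 ± 2.5% after thinning to 1000 UMIs (10.1 ± 1.7% in the marker-rich nuclei). The oligodendrocyte gate had 0.927 ± 0.19% after the same thinning (2.32 ± 0.41% before). Whether cells of that gate express the gene, and from which cells the Oprm1 UMIs in microglia nuclei came, was not tested. The remaining opioid receptor genes were at a few UMIs per library: Oprd1 at 8.17 ± 8.34 CPM in saline and 1.13 ± 0.995 in naloxone, Oprk1 at 6.64 ± 4.24 and 3.09 ± 2.87, and Oprl1 at 5.43 ± 0.633 and 1.73 ± 0.207 CPM (SD, n = 3), and none passed the filter on low counts.

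**Figure D4:**
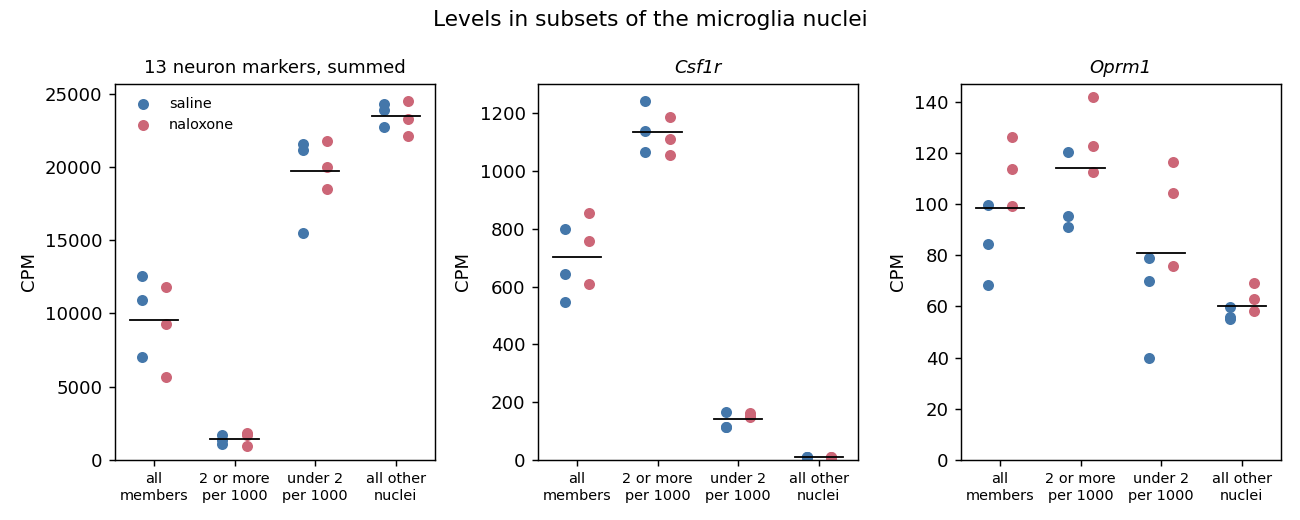
CPM (vertical, linear from 0) of 13 neuron markers summed, of Csf1r and of Oprm1 by library in all microglia nuclei, the marker-rich nuclei (2 or more marker UMIs per 1000), the marker-poor nuclei and all other kept nuclei. The horizontal line is the mean of 6 libraries. Csf1r is one of the genes that define the subsets, and Oprm1 has a mean of 114 CPM in the marker-rich nuclei against 60.3 CPM in the other nuclei.

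The share of microglia among kept nuclei was 2.09%, 2.16% and 3.08% in saline replicates 1, 2 and 3 and 2.43%, 2.90% and 3.66% in naloxone replicates 4, 5 and 6. The groups overlapped. The naloxone mean was higher by 0.559 percentage points, with SDs of 0.552 and 0.621 (n = 3), and an exact two-sided permutation test gave p = 0.3, where 3 against 3 cannot go below 0.1. A gate for border macrophages, 2 or more UMIs of Mrc1, Cd163 and F13a1, held 10 of the 1644 nuclei: 0, 7 and 0 in saline and 0, 2 and 1 in naloxone libraries. As shares of microglia these were 0.745 ± 1.29% and 0.320 ± 0.315% (exact two-sided permutation p = 1, and p = 1 after thinning), and without saline replicate 2 the naloxone share was the higher one, by 0.320 percentage points.

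Sex was compared within libraries, with 527 nuclei read as female from Xist and 351 as male from 4 Y-linked genes. The 698 nuclei with neither and the 68 with both were left out, so values by sex cover a part of the members. Of 3846 genes tested, 5 passed (0.13%), and 4 of them were the genes used to read the sex: Xist, Uty, Ddx3y and Kdm5d. The remaining one, ENSRNOG00000065796, has no symbol in the files and was higher in female nuclei, at 403 ± 78.8 against 11.9 ± 15.2 CPM (log2 difference 5.36, edgeR adjusted p = 7.4e-07, SD over n = 6 libraries). In the marker-rich nuclei its log2 difference was 4.85 (edgeR adjusted p = 3.3e-09). Female nuclei were chosen by their Xist UMIs, and whether this gene lies at the Xist locus was not checked. For the sex by treatment term 1 gene passed (0.026%), Elavl2, an RNA-binding protein of neurons. In female nuclei Elavl2 was at 90.0, 123 and 57.5 CPM in saline and 221, 102 and 24.8 CPM in naloxone libraries, and in male nuclei at 234, 457 and 179 CPM in saline and 25.1, 21.1 and 11.9 CPM in naloxone libraries (term 4.08, SE 0.52, edgeR adjusted p = 0.0042). In male nuclei each saline library was above each naloxone library, which held only a few UMIs of the gene, and in female nuclei the groups overlapped. The gene belonged to the marker-poor nuclei, with a mean of 183 CPM there against 6.68 CPM in the marker-rich ones, where it was not tested and 0 genes passed. It lost the call without saline replicate 2 (adjusted p = 0.0668) or naloxone replicate 4 (0.189).

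Fkbp5 and Eef2k were also read in each sex. In female nuclei Fkbp5 was at 47.0 ± 9.69 CPM in saline and 308 ± 108 CPM in naloxone libraries, and in male nuclei at 146 ± 59.6 and 430 ± 311 CPM (SD, n = 3), with the male part of naloxone replicate 4 as low as 75.2 CPM. It was lower in female than in male nuclei in 5 of 6 libraries, and the log2 difference of -0.82 (SE 0.42) did not pass the test (edgeR adjusted p = 0.999). Its sex by treatment term was 1.46 (SE 0.81, edgeR adjusted p = 0.928). Eef2k was at 99.2 ± 63.5 and 277 ± 53.9 CPM in female nuclei and at 109 ± 46.4 and 377 ± 226 CPM in male nuclei, with a term of -0.01 (SE 0.74, edgeR adjusted p = 1).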

How the data were processed

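Nuclei of 6 libraries were measured. The deposited values are raw counts of UMIs per gene and barcode, made with Cell Ranger 9.0.1 per the file headers. The submitters' processing notes name the build mRatBN7.2, Seurat 5.2.1 and R 4.4.0. Whether introns were counted is not given in the sources used here, and no expression value carries coordinates. The files hold 25629 genes, and 463 barcode strings occur in more than 1 library. The labels state 44592 nuclei. Doublets were called as the nuclei most like simulated pairs, and stayed in the sums. Their number was set beforehand, at 0.4% of a library's kept nuclei for every 1000 of them. The resulting 4.30% of the kept nuclei is thus an assumed rate and not a measured one.

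The counts of all members were summed per library (365354 to 668774 UMIs). Sums were tested with edgeR 4.0.16 (TMM factors, filterByExpr, quasi-likelihood, naloxone over saline, threshold 0.05). Alternatives were DESeq2 1.42.0, leaving out libraries one by one, RLE factors, an unfiltered gene table, minima of 1000 genes or 4 marker UMIs, doublets or border macrophages or nuclei with Xist and Y-linked UMIs removed, and sums by sex. The marker-rich nuclei, nuclei of at most 4000 UMIs, and the alternatives for the sex by treatment term were chosen after seeing the data. On simulated data with 200 of 8381 genes changed by 1 on the log2 scale, the test recovered 37% with 9 false calls. The share of false calls among those calls was thus above the threshold of 0.05. With no gene changed the test made 0 calls. As a check for a library deposited more than once, the chi-square per degree of freedom over genes was 2.01 to 4.85 for the pairs within a group.

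Named were called genes (up to 12 per direction), the 10 genes with the smallest p, up to 4 members per list by p, the opioid receptors and the 15 genes with the largest ratio to other nuclei. Further genes were chosen after their values were seen. Mt1 and Gnas, whose symbols 2 genes share, and listed symbols not in the files were not analysed here, and single genes that the rule names are not all reported here. Genes sharing reads with near-identical copies and antisense partners were not separated. The members and lists were chosen with earlier results of these data known.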

Additional observations from a re-analysis of the deposited data

Results flagged for a closer look

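The naloxone change of 2 genes differed between microglia and the other nuclei of the same libraries in the test of the difference itself. For Fkbp5 the difference was 1.51 on the log2 scale and for Eef2k 1.79. Both lost the call without saline replicate 1, 2 or 3 or naloxone replicate 5. The other nuclei are not uniform: Fkbp5 went from 42.1 to 170 CPM in the oligodendrocyte gate and from 22.9 to 155 CPM in the astrocyte gate, against 92.0 to 460 CPM in microglia, and the difference to these gates was not tested. Another difference was between the sexes within microglia: the term for Elavl2 was 4.08 on the log2 scale, female minus male change, with lower naloxone than saline levels in male nuclei and overlapping groups in female nuclei. Its level came mainly from nuclei with few marker UMIs. The level of neuron markers moves with that set of nuclei, and its part in the Elavl2 difference was not tested.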

How the results depend on the processing

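Alternatives were computed for 42 genes: the 12 with the smallest p, Oprm1 and the tested list members with an unadjusted p under 0.05. Their direction was kept in all 675 values, and 19 values of genes not called in the report passed the threshold, most of them with no filter on low counts. Other genes named by their values were not recomputed. The count of 2 called genes was 6 with DESeq2, 25 with no filter on low counts, 1 with at least 1000 genes per nucleus, 1 with at least 4 marker UMIs, 1 in nuclei of at most 4000 UMIs and 0 in sums split by sex with a sex covariate, where fewer nuclei and 3846 genes entered. Leaving out 1 library gave 0 to 5. Fkbp5 lost its call without saline replicate 1 and in the sums by sex (edgeR adjusted p = 0.204). Eef2k also lost it with at least 1000 genes (0.263), at least 4 marker UMIs (0.0628) and at most 4000 UMIs (0.197). The treatment fit on sums by sex had no library term, so the female and male sums of a library entered as separate replicates. Its p-values therefore do not measure the spread between libraries alone. The count of 2 genes that differ from the other nuclei was 29 with no filter, and 0 to 3 with a library left out. The count of 1 gene between the sexes outside those used to read the sex was 8 with no filter and 1 to 2 with a library left out. The 1 sex by treatment call became 0 in the marker-rich nuclei, and 0 to 1 with a library left out. Oprm1, at 98.7 CPM over 6 libraries, was at 114 CPM in the marker-rich nuclei. Unless stated, the cause was not tested. No paired analysis was possible because the replicate numbers 1 to 6 are not shared between the groups. The smallest microglia sum held 365354 UMIs, in saline replicate 1. At the depth, spread and number of these libraries the simulated data recovered 37% of genes changed by 1 on the log2 scale, and the part of each was not tested.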
